A study of Saccharomyces cerevisiae with 6 samples.

Results

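Budding yeast keeps several proteins in pairs of isoforms, with one gene used in air and the other when oxygen or heme is short, and the messenger RNA of 10 such genes and their regulators was measured here. The genes were taken by name and by no rule on their values, but with earlier results of these data known. The isoforms were CYC7 (iso-2 cytochrome c), COX5B (subunit Vb of cytochrome c oxidase), and ANB1 and HYP2 (both eIF5A). With them were the mitochondrial ADP/ATP carriers AAC1, AAC2 (listed in the annotation as PET9) and AAC3, and the regulators and target ROX1, HEM13 and HAP1. These genes are 10 of the 7127 features counted, and all 10 had enough reads to be tested. The study asked how loss of the Swi-Snf chromatin remodeling complex, whose ATPase is Snf2, alters transcription in rich medium. There were 3 wild-type (HHY221) and 3 snf2Δ libraries of poly(A)-enriched RNA, from log-phase cells in YPD, a rich glucose medium, at 30 °C and without rapamycin. HHY221 is a W303 MATa haploid, and both genotypes carry TOR1-1, fpr1Δ and an RPL13A-2×FKBP12 fusion, the alleles of an anchor-away strain in which rapamycin can pull tagged proteins out of the nucleus. The study's strain table gives the snf2Δ strain as this background with snf2Δ::natMX6. The labels do not say whether replicates were separate cultures, so p-values measure the spread between these libraries, which may be technical.

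When oxygen is plentiful, yeast makes heme, and heme activates the transcription factor Hap1 and the Hap2/3/4/5 complex, which switch on respiratory genes. Hap1 also switches on ROX1, whose product is a DNA-binding repressor that recruits the Tup1-Cyc8 corepressor to the promoters of hypoxic genes. ANB1, COX5B, CYC7, AAC3 and HEM13 are known targets of Rox1 repression, and ROX1 represses its own promoter. The aerobic counterparts of the isoforms are CYC1 (iso-1 cytochrome c), COX5A (subunit Va), HYP2 and AAC2, the main carrier that exchanges ADP for ATP across the inner mitochondrial membrane. HAP1 is interrupted near its end by a Ty1 transposon in the reference strain S288C and is intact in W303.

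Among the 10 genes, 5 were higher in snf2Δ (ANB1, AAC1, ROX1, HYP2 and AAC2), 2 were lower (COX5B and CYC7) and 3 did not pass the test (AAC3, HAP1 and HEM13). Leaving out wild-type replicate 2 or snf2Δ replicate 2 lowered the number that rose to 3, as HYP2 and AAC2 lost their calls. Of the 5 known Rox1 targets named above, ROX1 itself not counted, 1 rose, 2 fell and 2 did not pass. ROX1, which represses its own promoter, rose. A gene was said to have risen or fallen where the adjusted p of edgeR's quasi-likelihood test was under 0.05. By that rule 34.6% of the 5641 genes tested changed, 16.7% rose and 17.9% fell, so a changed gene was common in this mutant. The median log2 fold change was 0.25 over the 10 genes and −0.02 over all genes tested. The read counts of the 2 genotypes did not overlap, once scaled to library size, for 6 of the 10 genes and for 46.6% of all genes tested. Of these, 4 were higher in snf2Δ and 2 were lower, beside 22.4% and 24.1% of all genes tested. Of the 10, 2 genes, ANB1 and AAC1, changed by more than 2 on the log2 scale, as 2.82% of all genes tested did with an adjusted p under 0.05.

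The Rox1 binding motif is the sequence the hypoxic genes are known to share, and the stretches that hold it are shown here because the genes below that carry it did not move together. The core searched was ATTGTT, on both strands, within the 600 bases before each start codon. The reference genome is R64 (sacCer3), the build of the files, from RefSeq, so these are S288C letters and not a read of the W303 strains. Capitals mark the core, and AACAAT is the core on the other strand. The ANB1 stretch is chrX:525563-525699 on the minus strand, 318 to 182 bases before the start codon. The ROX1 stretch is chrXVI:679223-679311 on the plus strand, 470 to 382 bases before its start codon. The 4 short ones, all on the plus strand, are chrIX:154992-155009 for COX5B, chrII:415783-415800 for AAC3, chrIV:546454-546471 for HEM13 and chrXII:646161-646178 for HAP1.
ANB1: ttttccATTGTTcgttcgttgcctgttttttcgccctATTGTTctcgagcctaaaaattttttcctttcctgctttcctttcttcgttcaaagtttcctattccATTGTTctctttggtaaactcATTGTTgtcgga
ROX1: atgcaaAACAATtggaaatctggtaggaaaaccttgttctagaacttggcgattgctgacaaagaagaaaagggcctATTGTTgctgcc
COX5B: ttttgtATTGTTcgataa
AAC3: tttttcATTGTTtggttg
HEM13: ttgcccATTGTTctcgtt
HAP1: gacgctATTGTTctccca

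The core is short and was found before 54.9% of the 5999 genes whose upstream sequence was read, with at least 2 matches before 19.2%, so a match alone sets no gene apart. ANB1 held 4 matches, COX5B and HEM13 held 3 each, ROX1 and HAP1 held 2 each, and AAC3 held 1. CYC7, HYP2, AAC1, AAC2 and CYC1 held 0 in this window. The longer form ATTGTTCT, which contains the core, was rarer and was found before 5.55% of genes. ANB1 held 2 matches to that form, one of 8 genes with at least 2, and HEM13, HAP1 and COX5A held 1 each. CCAAT, the box of the Hap2/3/4/5 complex, was found before 70.3% of genes, and AAC2 held 4. The Hap1 motif, a pair of CGG triplets in 1 direction with TA between them, was found before 0.533% of genes and before none of the 10. These are matches of letters and no measure of binding.

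**Figure D1:**
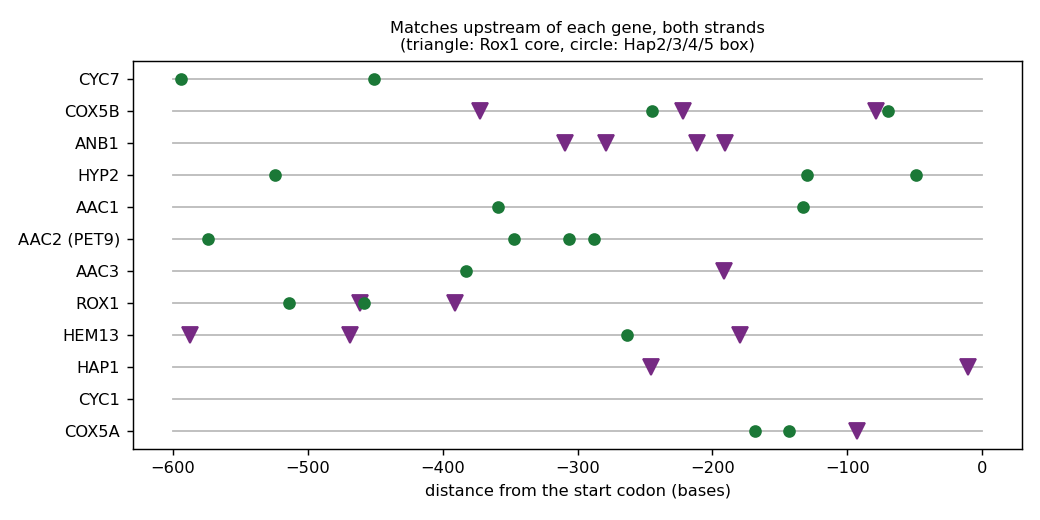
Matches to the Rox1 core (triangles) and to the Hap2/3/4/5 box (circles) on either strand in the 600 bases before the start codon of the 10 genes and of CYC1 and COX5A. The horizontal axis is the distance from the start codon in bases. ANB1 has 4 Rox1 core matches and no Hap2/3/4/5 box, whereas AAC2 (PET9) has 4 boxes and no core.

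The deletion itself was checked first. SNF2 had 363, 298 and 365 reads in wild-type replicates 1, 2 and 3 and 6, 9 and 7 reads in the snf2Δ replicates, or on average 64.8 and 1.70 CPM (counts per 1e+06 counts, scaled by TMM library factors). The libraries held 4134546 to 6708036 counts, and a gene without a single read could still stand at up to 0.481 to 0.746 CPM, depending on the library, as far as counting error goes. The a-cell markers summed to 1743 ± 524 CPM (mean ± SD, n = 3 here and throughout) in wild type and to 1552 ± 98.1 CPM in snf2Δ, and MFA1 and MFA2 fell whereas STE2, STE6 and BAR1 did not pass. That count of 2 was 1 without wild-type replicate 3, snf2Δ replicate 1 or snf2Δ replicate 3, and without wild-type replicate 3 another 2 of the 5 rose. The α-cell markers MF(ALPHA)1, MF(ALPHA)2 and STE3 were near 0 in both genotypes, summing to 2.14 and 3.25 CPM. Wild-type replicate 3, the deepest library, stood apart from the other wild-type libraries, with a chi-square per degree of freedom of 22.3 and 26.7 against them where they gave 5.50 between themselves. Without it 5 of the 10 genes rose and 2 fell, as with it.

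ANB1 (YJR047C, chromosome X, 524908 to 525381, minus strand), the anaerobic eIF5A, had the largest change of the 10 and the widest spread. It had 16, 19 and 19 reads in wild type and 339, 69 and 21 reads in snf2Δ replicates 1, 2 and 3. Scaled to library size, all 3 snf2Δ libraries were above all 3 wild-type libraries, but replicate 3 was above by little, at 5.22 CPM against a wild-type high of 3.88 CPM. The wild-type mean was 3.41 ± 0.426 CPM and the snf2Δ mean was 32.8 ± 39.5 CPM, with a log2 fold change of 3.27 ± 0.69 (SE) and an adjusted p of 0.00167 by edgeR. Most of the size came from 1 library. Without snf2Δ replicate 1 the log2 fold change was 1.60, with an adjusted p of 0.0155. Per kilobase of exon ANB1 was at 165 CPM in snf2Δ replicate 1 and 31.9 CPM in replicate 2, with replicate 3 lower still, and at 6.43 to 8.18 CPM in the wild-type libraries.

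**Figure D2:**
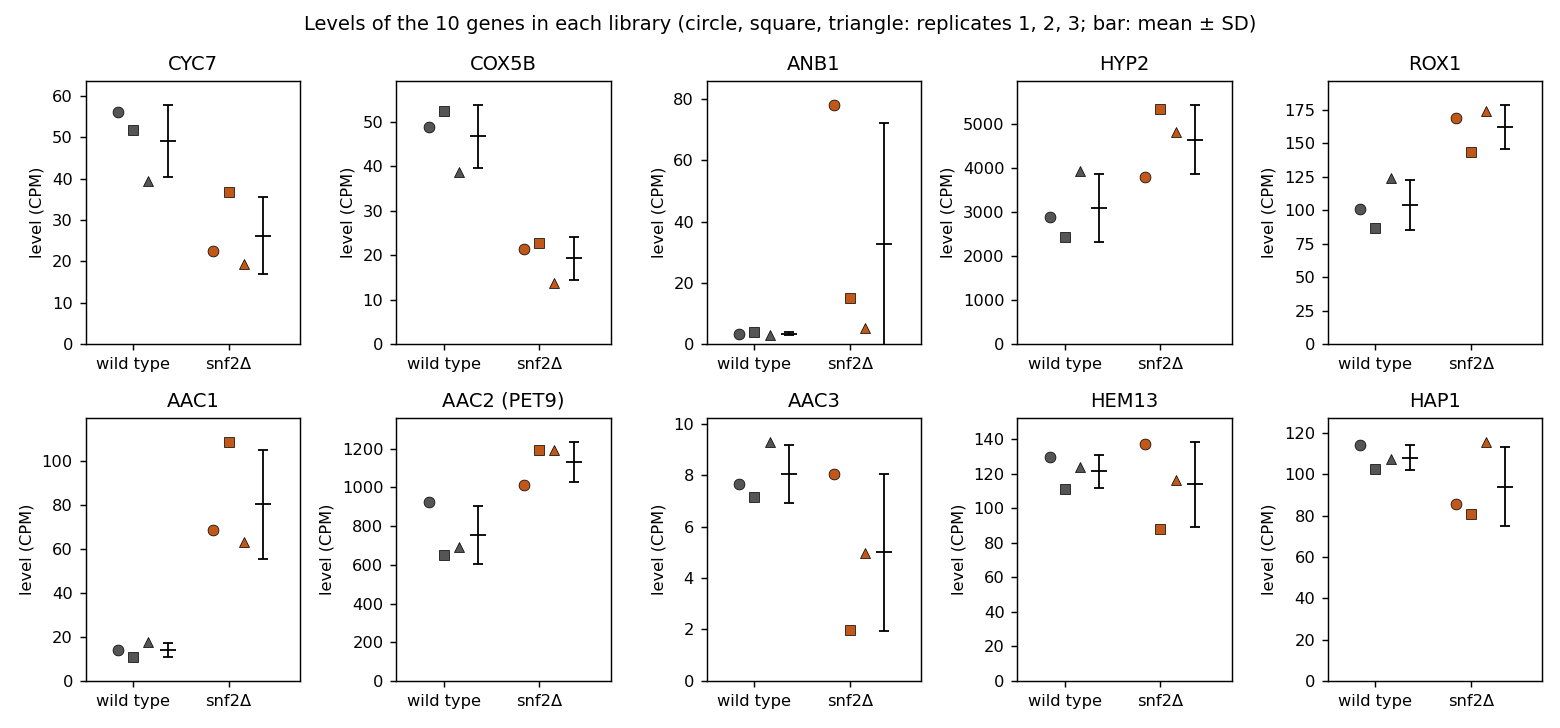
Level of each of the 10 genes in CPM (vertical axis, linear and starting at 0) in the 3 wild-type (grey) and 3 snf2Δ (orange) libraries. Circles, squares and triangles are replicates 1, 2 and 3, and the bars are mean ± SD, with the lower arm for ANB1 in snf2Δ running below 0 and out of the panel. ANB1 in snf2Δ spans 5.22 to 78.1 CPM, whereas AAC1 lies between 63.4 and 109 CPM in all 3 snf2Δ libraries, above 10.8 to 17.5 CPM in wild type.

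HYP2 (YEL034W, chromosome V, 85676 to 86149, plus strand), the aerobic eIF5A, was by far the more abundant gene of the pair. It stood at 2896, 2433 and 3935 CPM in the wild-type libraries and at 3785, 5327 and 4807 CPM in the snf2Δ libraries. The groups overlapped, since snf2Δ replicate 1 was below wild-type replicate 3. The log2 fold change was 0.59 ± 0.19, with an adjusted p of 0.0274 by edgeR, and the call was lost in 6 of 16 alternative analyses. It was lost without wild-type replicate 1 (adjusted p = 0.0964), wild-type replicate 2 (0.121), snf2Δ replicate 2 (0.135) or snf2Δ replicate 3 (0.0947), and with a correction for GC content and length (0.139). Per kilobase of exon HYP2 was at 6515 CPM in wild type, where ANB1 was at 7.19 CPM. ANB1 was 0.117 ± 0.0410% of the pair per length in wild type and 0.804 ± 1.06% in snf2Δ, where the libraries held 2.02%, 0.283% and 0.108%. The log2 ratio of ANB1 to HYP2 differed by 1.81 between genotypes, the groups overlapped, and the exact permutation test gave p = 0.3, 2-sided, when 3 against 3 libraries cannot give less than 0.1. Without snf2Δ replicate 1 the ratio differed by 0.63.

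The coding sequences of ANB1 and HYP2 are close enough to bear on how reads were shared between them, so their first 120 bases are shown. Capitals mark the 6 bases that differ. ANB1 is chrX:525262-525381 on the minus strand and HYP2 is chrV:85676-85795 on the plus strand, both R64 from RefSeq.
ANB1: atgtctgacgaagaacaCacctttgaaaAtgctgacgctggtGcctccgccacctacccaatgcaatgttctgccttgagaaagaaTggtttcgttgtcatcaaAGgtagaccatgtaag
HYP2: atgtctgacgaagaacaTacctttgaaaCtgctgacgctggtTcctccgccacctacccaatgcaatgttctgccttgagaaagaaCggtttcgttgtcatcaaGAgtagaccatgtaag

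Over the whole coding length, 431 of 474 bases were identical (90.9%), and the longest identical run was 43 bases. None of the 400 windows of 75 bases in ANB1, the read length of the study, occurred in HYP2, so a read free of errors can be told apart. The sources used here do not say how reads that fit both genes were counted, and levels of both carry that uncertainty. The high ANB1 count of snf2Δ replicate 1 went with the lowest HYP2 level among the snf2Δ libraries. In replicates 1, 2 and 3, HYP2 was at 3785, 5327 and 4807 CPM and ANB1 at 78.1, 15.1 and 5.22 CPM. Replicate 3 was the lowest for ANB1 and was not the highest for HYP2. Its ANB1 share of the pair, 0.108%, lay within the 0.0774% to 0.159% of the wild-type libraries. A sharing of reads was not tested. The other pairs were less alike, with 79.1% identity for AAC3 and AAC2, 77% for CYC7 and CYC1, 71.9% for AAC1 and AAC2, 68.6% for AAC1 and AAC3 and 67.5% for COX5B and COX5A, and none shared a window of 75 bases.

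The enzymes that make the hypusine residue of eIF5A did not rise with ANB1 and HYP2. LIA1, deoxyhypusine hydroxylase, fell with a log2 fold change of −0.87 and an adjusted p of 2.16e-04 by edgeR. DYS1, deoxyhypusine synthase, did not pass, at −0.14.

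CYC7 (YEL039C, chromosome V, 79636 to 79977, minus strand) and COX5B (YIL111W, chromosome IX, 155222 to 155765, plus strand, with an intron) are the hypoxic isoforms of the cytochrome c and cytochrome oxidase steps of respiration, and both fell. CYC7 stood at 56.2, 51.8 and 39.4 CPM in the wild-type libraries and at 22.6, 36.8 and 19.4 CPM in the snf2Δ libraries. The groups did not overlap, although wild-type replicate 3 and snf2Δ replicate 2 were close. The level fell 1.86-fold, with a log2 fold change of −0.90 ± 0.22 and an adjusted p of 0.00474 by edgeR. COX5B stood at 49.0, 52.5 and 38.8 CPM in the wild-type libraries and at 21.4, 22.8 and 13.7 CPM in the snf2Δ libraries. The groups were well apart, and replicate 3 was the lowest library of its genotype for both genes. The level of COX5B fell 2.41-fold, with a log2 fold change of −1.27 ± 0.20 and an adjusted p of 1.55e-04.

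The aerobic partners did not pass the test. CYC1 (YJR048W, chromosome X, 526335 to 526664, plus strand) had means of 488 ± 55.3 CPM in wild type and of 589 ± 79.6 CPM in snf2Δ, with a log2 fold change of 0.27 ± 0.15 and an adjusted p of 0.188 by edgeR. COX5A (YNL052W, chromosome XIV, 531725 to 532186, plus strand) was at 316 ± 71.8 CPM and 362 ± 53.1 CPM, with a log2 fold change of 0.19 ± 0.17 and an adjusted p of 0.410. Both values lay above 0 while those of their hypoxic partners lay below it. CYC1 and ANB1 are neighbours that are transcribed away from each other, with 953 bases between them, and of this pair only ANB1 passed the test, though the difference between the 2 changes was not tested.

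The balance within each pair was read as the share of the minor gene, per length, within each library, which needs no scaling between libraries. CYC7 made up 9.81%, 10.5% and 6.61% of CYC7 and CYC1 together in wild type and 3.41%, 5.18% and 3.62% in snf2Δ. COX5B made up 13.5%, 17.9% and 9.20% of COX5B and COX5A together in wild type and 6.08%, 5.17% and 4.05% in snf2Δ. In both pairs every snf2Δ library was below every wild-type library. The log2 ratio of the hypoxic to the aerobic gene differed, as snf2Δ minus wild type, by −1.21 for the cytochrome c pair and by −1.51 for the cytochrome oxidase pair. Each gave p = 0.1 by the exact permutation test, the smallest that 3 against 3 libraries allow, and 0.125 after adjustment over the 5 pairs compared.

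**Figure D3:**
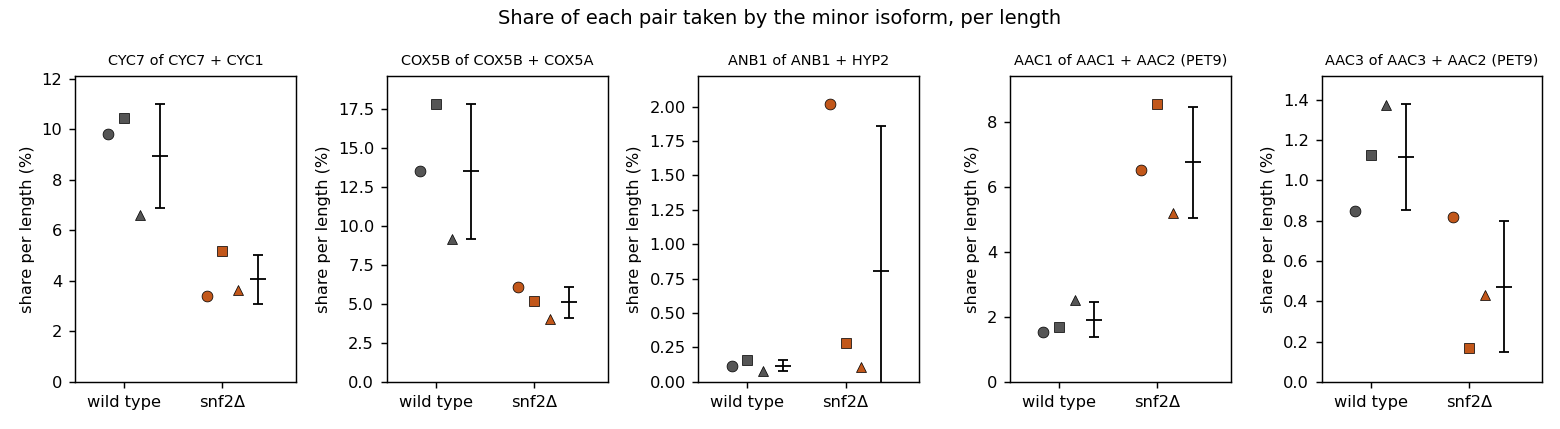
Share of each pair's length-scaled level taken by the less abundant gene, in percent (vertical axes, linear from 0), in the 3 wild-type (grey) and 3 snf2Δ (orange) libraries, with mean ± SD as bars. Circles, squares and triangles are replicates 1, 2 and 3, and the lower arm for ANB1 in snf2Δ runs below 0. The shares of CYC7, COX5B and AAC3 are lower in every snf2Δ library and that of AAC1 is higher, whereas the ANB1 shares overlap. For AAC3, snf2Δ replicate 1 is only just below wild-type replicate 1.

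Of the other cytochrome c and cytochrome oxidase genes, 3 of 10 rose and 0 fell, with a median log2 fold change of 0.25. For this and every later list, the shares over all genes tested were 16.7% that rose and 17.9% that fell. COX7 rose by 0.78 on the log2 scale, COX9 by 0.42 and COX12 by 0.41, all nuclear-encoded subunits of cytochrome c oxidase. COX13, another such subunit, had a log2 fold change of 0.39 and an adjusted p of 0.0602 by edgeR. The fall of COX5B was therefore not seen in the other subunits of this list. The number that rose ran from 1 to 5 over the alternative analyses and the number that fell from 0 to 2.

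The 3 ADP/ATP carriers moved in different ways. AAC1 (YMR056C, chromosome XIII, 387315 to 388244, minus strand), a minor carrier, rose 5.64-fold. It had 68, 53 and 109 reads in wild type and 298, 497 and 255 reads in snf2Δ, or 14.0, 10.8 and 17.5 CPM against 68.6, 109 and 63.4 CPM. The lowest snf2Δ library was above the highest wild-type library by a wide margin. The log2 fold change was 2.50 ± 0.23, with an adjusted p of 4.09e-07 by edgeR, and it lay between 2.21 and 2.69 in all 16 alternative analyses.

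AAC2 (PET9, YBL030C, chromosome II, 163041 to 163997, minus strand), the carrier that respiring cells depend on, was the most abundant of the 3 by far. It stood at 924, 650.1 and 690.5 CPM in the wild-type libraries and at 1013, 1194 and 1192 CPM in the snf2Δ libraries. The groups did not overlap, though wild-type replicate 1 was near snf2Δ replicate 1. The log2 fold change was 0.59 ± 0.16, with an adjusted p of 0.0110 by edgeR. The call was lost without wild-type replicate 2, at 0.49 with an adjusted p of 0.0591, and without snf2Δ replicate 2, at 0.55 with an adjusted p of 0.0504.

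AAC3 (YBR085W, chromosome II, 415983 to 416906, plus strand), the carrier used without oxygen, was low in every library, with 37, 35 and 58 reads in wild type and 35, 9 and 20 reads in snf2Δ. The groups overlapped through snf2Δ replicate 1, at 8.06 CPM, beside 1.97 and 4.97 CPM in replicates 2 and 3 and 7.14 to 9.30 CPM in wild type. The log2 fold change was −0.70 ± 0.37, with an adjusted p of 0.159 by edgeR. Without snf2Δ replicate 1 the value was −1.23 and the adjusted p 0.0359, so that library decided the call.

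Among the 3 carriers AAC1 had a larger share in snf2Δ and AAC2 a smaller one, although the level of AAC2 rose. Per length, AAC2 made up 97.0 ± 0.766% of the 3 carriers in wild type and 92.8 ± 1.57% in snf2Δ. AAC1 made up 1.90 ± 0.529% and 6.73 ± 1.71%, and AAC3 made up 1.09 ± 0.253% and 0.443 ± 0.306%. In wild type the minor carriers stood close together, at 15.2 CPM per kilobase for AAC1 and 8.69 for AAC3, and in snf2Δ they stood at 86.3 and 5.41. The log2 ratio of AAC1 to AAC2 was higher in snf2Δ by 1.89, and that of AAC3 to AAC2 differed by −1.47. Neither ratio overlapped between genotypes, and each gave p = 0.1 by the exact permutation test and 0.125 after adjustment over the 5 pairs. For AAC3 the gap was narrow, with log2 ratios of −6.95 in snf2Δ replicate 1 and −6.90 in wild-type replicate 1. These rest on 35 and 37 AAC3 reads. Without snf2Δ replicate 2 the AAC3 to AAC2 difference was −0.88.

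Other carriers and channels that move adenine nucleotides and phosphate gave 1 rise and 1 fall among 6 genes, with a median log2 fold change of 0.27. Leaving out any of 4 libraries (replicates 1 and 2 of wild type, 2 and 3 of snf2Δ) took the rises to 0, and upper quartile scaling raised them to 3, the extremes over the alternatives. MIR1, the main mitochondrial phosphate carrier, rose with a log2 fold change of 0.50 and an adjusted p of 0.0482 by edgeR, though its groups overlapped. PIC2, another carrier of this family that can move phosphate and copper, fell with a log2 fold change of −2.99, from 347 to 43.6 CPM. SAL1 (a calcium-dependent ATP-Mg carrier, 0.33), ANT1 (the peroxisomal carrier, 0.38), and the outer-membrane porins POR1 (0.21) and POR2 (−0.14) did not pass, values being log2 fold changes. AAC1 lies 577 bases from FET3, a multicopper ferroxidase transcribed in the opposite direction, and FET3 fell with a log2 fold change of −1.84.

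ROX1 (YPR065W, chromosome XVI, 679693 to 680799, plus strand), the repressor of the hypoxic genes, was higher in snf2Δ. It stood at 101, 86.7 and 124 CPM in the wild-type libraries and at 169, 143 and 174 CPM in the snf2Δ libraries. The groups did not overlap. With a log2 fold change of 0.64 ± 0.15, it had an adjusted p of 0.00414 by edgeR. The annotated feature just before it, YPR064W (678951 to 679370, same strand, 322 bases away), had 1, 0 and 1 reads in wild type and 21, 28 and 22 reads in snf2Δ, with an adjusted p of 5.38e-06. The ROX1 stretch printed above lies inside YPR064W. The part of reads from across this interval in the ROX1 level was not tested.

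HEM13 (YDR044W, chromosome IV, 546642 to 547628, plus strand), coproporphyrinogen III oxidase, the oxygen-using step of heme synthesis, stood at 129.5, 111 and 124 CPM in the wild-type libraries and at 137, 87.8 and 116 CPM in the snf2Δ libraries. The snf2Δ libraries lay on both sides of the wild-type range. HEM13 had a log2 fold change of −0.09 ± 0.16 and an adjusted p of 0.676 by edgeR, and without snf2Δ replicate 2 the value was 0.06. HAP1 (YLR256W, chromosome XII, 646415 to 650923, plus strand), the heme-activated factor, stood at 114, 102 and 107 CPM in the wild-type libraries and at 85.4, 80.8 and 116 CPM in the snf2Δ libraries. Replicates 1 and 2 of snf2Δ were below wild type and replicate 3 was above it. For HAP1 the log2 fold change was −0.20 ± 0.15 and the adjusted p 0.320. Counts of HAP1 rest on the reference annotation. In the reference a Ty1 feature, YLR256W-A, lies 193 bases after HAP1. It went from 7.50 to 2.44 CPM and fell with a log2 fold change of −1.60. As HAP1 is intact in W303, the reads counted for YLR256W-A cannot be placed beside HAP1 in these strains.

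Of 13 other regulators of oxygen and heme responses, 7 fell and 1 rose, with a median log2 fold change of −0.52. HAP4, the limiting activator subunit of the Hap2/3/4/5 complex, fell from 436 to 76.2 CPM, with 2136, 2221 and 2578 reads in wild type and 286, 478 and 234 reads in snf2Δ. Its log2 fold change was −2.51. SUT2, a regulator of sterol uptake genes, fell by 1.89 on the log2 scale, and CYC8, the corepressor partner of Tup1 that Rox1 recruits, fell by 1.11. UPC2, an activator of sterol and anaerobic cell wall genes, fell by 1.27. TUP1 did not pass, at −0.29, a value looked up for its part in Rox1 repression after the others were seen.

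The annotated neighbours within 1 kilobase of the 10 genes were looked at together. Of 16 such neighbours that could be tested, 2 rose, 3 fell and 11 did not pass, where 16.7% of all genes tested rose and 17.9% fell. MTC7, 29 bases after HYP2 on the same strand, rose with a log2 fold change of 0.49. UTR2, which meets CYC7 end to end 179 bases away, fell with −1.54. The other called neighbours were YPR064W, FET3 and YLR256W-A, the last a neighbour of HAP1 in the reference but not where HAP1 is intact. CYC1, UTR4, HOS4, HPM1, MCM3, BUB2, SHE1, YBL029C-A, RPL19A, UBA3 and RPC11 did not pass, at log2 fold changes between −0.42 (HOS4) and 0.27 (CYC1). UTR5 and YLR255C were too low to be tested.

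Genes that heme activates were mixed, with 3 of 6 lower, none higher and a median log2 fold change of −0.61. YHB1, the flavohemoglobin that removes nitric oxide, fell by 5.06 on the log2 scale, CTT1, the cytosolic catalase, by 2.49, and CYT1, cytochrome c1, by 1.05. CYC1, CYB2 (a lactate dehydrogenase of mitochondria, −0.18) and SOD2 (mitochondrial superoxide dismutase, −0.07) did not pass. Among 7 other genes of heme synthesis, HEM2 fell by 0.88 and HEM3 by 0.69, both early steps. HEM1 (−0.05), HEM4 (0.31), HEM12 (−0.24), HEM14 (−0.36) and HEM15 (−0.24) did not pass, and the median over the list was −0.24.

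**Figure D4:**
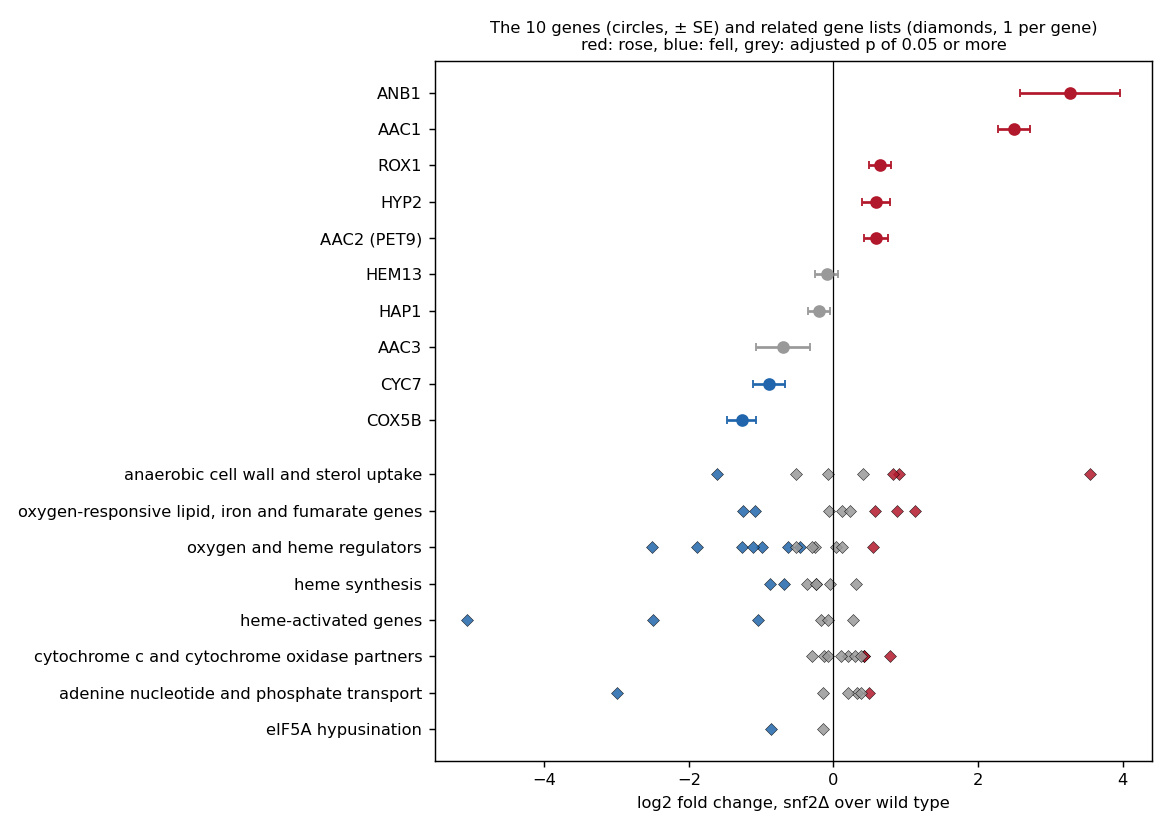
Log2 fold change of snf2Δ over wild type (horizontal axis) for the 10 genes, as circles with the standard error of the edgeR fit, and for the genes of 8 related lists, as 1 diamond each. Red marks genes that rose, blue genes that fell and grey genes with an adjusted p of 0.05 or more. The 10 genes run from −1.27 for COX5B to 3.27 for ANB1, and among the lists the regulators hold 7 falls and 1 rise.

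Other genes known to be induced without oxygen were looked at beside ANB1. Of 9 anaerobic cell wall and sterol uptake genes, 7 could be tested, 3 rose and 1 fell, with a median log2 fold change of 0.40. TIR1, a cell wall mannoprotein, rose with a log2 fold change of 3.54 ± 0.77 and an adjusted p of 0.00213 by edgeR, with 28, 12 and 22 reads in wild type and 453, 136 and 10 reads in snf2Δ. Its snf2Δ replicate 3 was within the wild-type range, so its groups overlapped. Without snf2Δ replicate 1 the value was 2.07 with an adjusted p of 0.0443, and limma-voom gave an adjusted p of 0.0953. AUS1 and PDR11, the transporters that take up sterols, rose by 0.91 and 0.83 on the log2 scale. TIR3, another mannoprotein of the family, fell with a log2 fold change of −1.61, from 140, 120 and 162 reads to 61, 30 and 21.

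TIR1 and ANB1 were both highest in snf2Δ replicate 1 and lowest in snf2Δ replicate 3. DAN1, another mannoprotein that was too low to be tested and was named after its counts were seen, had 4, 0 and 3 reads in wild type and 59, 22 and 1 reads in snf2Δ. TIR4, like TIR2 also named after its counts were seen, had 161, 91 and 39 reads in snf2Δ, beside 103 to 163 reads in wild type. Scaled to library size, 6 of the 9 genes of the list were highest in snf2Δ replicate 1 and lowest in replicate 3, TIR1, DAN1, TIR4, TIR3, TIR2 and PAU24, although TIR3 was lower than wild type in every library. The other 3 were highest in snf2Δ replicate 2, with AUS1 at 62.4, 65.9 and 56.9 CPM, PDR11 at 42.8, 51.7 and 46.2 CPM and DAN4 at 26.0, 30.9 and 27.6 CPM. PAU24 and DAN4 too were named after their values were seen, and PAU24 was too low to be tested, with 10, 6 and 5 reads in snf2Δ. How many of all genes tested showed the order of those 6 was not counted, so 6 of 9 has no background beside it. Among 5199 genes with a mean over both genotypes of at least 10 CPM, TIR1 ranked 1 and ANB1 ranked 2 for the SD of log2 CPM between the snf2Δ libraries, at 2.71 and 1.95, and TIR4 ranked 4. TIR1 and ANB1 reached that mean only through snf2Δ, as their wild-type means were 3.92 and 3.41 CPM. Over all genes tested, without that filter, TIR1, ANB1 and TIR4 stood at the 99.98, 99.96 and 99.49 percentiles of this SD. AAC3, with a mean under 10 CPM, stood at the 99.61 percentile, above TIR4, but was lowest in snf2Δ replicate 2. HO, a gene outside the lists used here, ranked 3 among the 5199. In wild type the SD of ANB1 was 0.18, at the 46.9 percentile of all genes tested. The labels give the same range of optical density (OD600), 0.4 to 0.8, for every sample, with no density or aeration per culture. Whether the snf2Δ cultures differed in density or aeration was not tested.

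**Figure D5:**
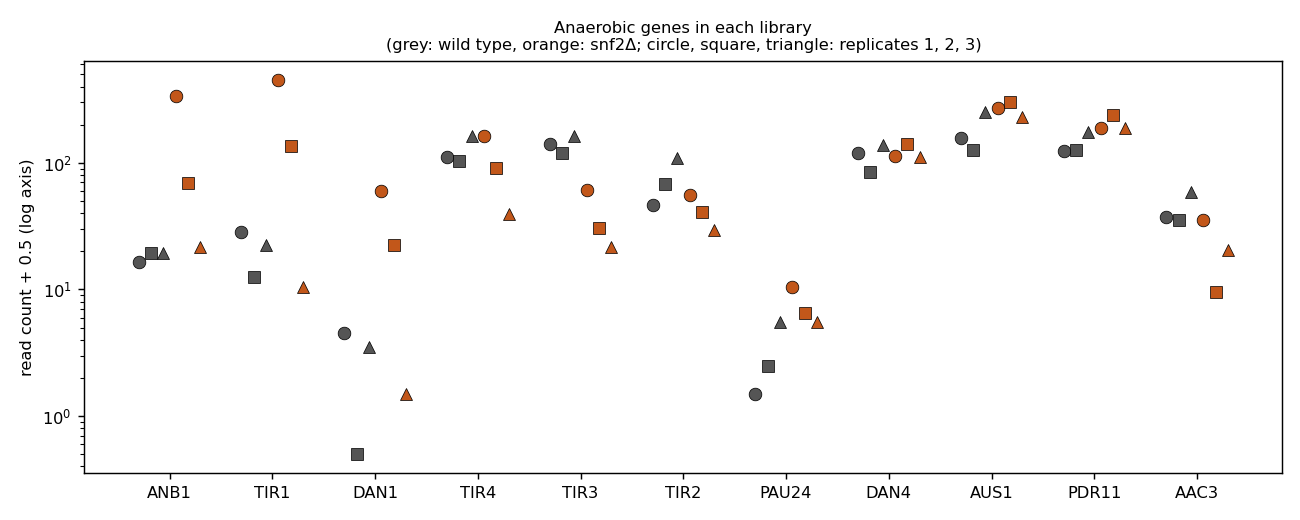
Reads per library for ANB1, AAC3 and all 9 genes of the anaerobic cell wall and sterol uptake list, as counts plus 0.5 on a log axis and not scaled to library size. Grey is wild type and orange is snf2Δ, and circles, squares and triangles are replicates 1, 2 and 3. In snf2Δ, ANB1 and 6 of the 9 genes (TIR1, DAN1, TIR4, TIR3, TIR2 and PAU24) are highest in replicate 1 and lowest in replicate 3. DAN4, AUS1 and PDR11 are highest in replicate 2, and AAC3 is lowest in replicate 2. The share of all genes with the order of ANB1 was not counted.

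Lipid, iron and fumarate genes that respond to oxygen were also measured. OLE1, the fatty acid desaturase, rose with a log2 fold change of 1.12, from 1388 to 3026 CPM. ERG25 (C-4 sterol methyl oxidase) rose by 0.88 and OSM1 (fumarate reductase) by 0.58 on the log2 scale. FET4, the low-affinity iron transporter that Rox1 represses, fell by 1.25, and HMG1, the HMG-CoA reductase favoured in air, fell by 1.09. HMG2, its hypoxic counterpart, had a log2 fold change of 0.12, ERG11 of 0.23 and FRD1 of −0.06, and these 3 did not pass. In all, 3 of 8 rose and 2 fell, with a median of 0.18. MGA2, the membrane-bound activator of OLE1, was the 1 regulator that rose, by 0.54, and was named after its value was seen.

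Set side by side per length, HYP2 and AAC2 were the most abundant of the 10 in both genotypes, at the 99.7 and 95.2 percentiles of all genes tested in wild type and the 99.8 and 96.1 percentiles in snf2Δ. ROX1 went from the 69.8 to the 79.2 percentile and AAC1 from the 15.4 to the 67.9. COX5B went from the 72.1 to the 47.5 percentile and CYC7 from the 78.7 to the 64.8. AAC3 was near the bottom in both, and at the 3.13 percentile in snf2Δ. In wild type ANB1, AAC3 and AAC1 were the lowest of the 10, and in snf2Δ AAC3 and HAP1 were, at 5.41 and 20.9 CPM per kilobase.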

How the data were processed

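RNA-seq of 3 wild-type and 3 snf2Δ libraries was analysed from a table of raw read counts per annotated feature. The authors deposited these counts as whole numbers that were not normalized, 1 column per library, with replicates not pooled. Reads were paired-end, and the submitters' processing notes name bcl2fastq 2.18, STAR 2.7.3a, RSEM 1.3.0 and sacCer3. Strand use and the treatment of reads that match several places are not given in the sources used here. The labels describe hot phenol extraction and the study's methods a column kit, so the extraction is not settled.

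Genes passing edgeR's default filter (filterByExpr) were fitted with edgeR 4.0.16 in R 4.3.3 by genotype alone, with TMM factors. The quasi-likelihood F test was 2-sided and Benjamini-Hochberg adjusted over all genes that passed the filter, SNF2 among them, at a threshold of 0.05. Counts and shares over all genes tested leave SNF2 out and cover 5641 genes. CPM were scaled by TMM and, to compare genes, divided by exon length in kilobases. Shares and log2 ratios within a library used the counts, the ratios with a pseudocount of 0.5, and an exact permutation test. Of 7127 features, 6001 matched RefSeq locus tags, from which symbols, positions and sequences were taken. The edgeR procedure was tested on simulated counts with far fewer changed genes than were called here. That simulation does not show how it behaves when so many genes change. The alternatives were DESeq2 size factors, upper quartile and total-count scaling, no filter, at least 10 CPM in at least 3 libraries, limma-voom (limma 3.58.1), the DESeq2 1.42.0 Wald test, a GC and length correction, a replicate block, both together, and each library left out. For ratios they were other pseudocounts and each library left out. Library totals of 4134546 to 6708036 counts set the precision, and intervals from counts cover counting error only. The 10 genes and the gene lists were chosen with earlier results of these data known. The text names the 10 genes, CYC1, COX5A, SNF2, protein-coding neighbours within 1 kilobase of the 10, all genes of lists of 8 or fewer, and the 4 smallest adjusted p of longer lists, with exceptions stated.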

Additional observations from a re-analysis of the deposited data

How the results depend on the processing

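Of 158 values of the 10 genes over 16 alternative analyses, 148 kept their direction and their side of the threshold, 8 lost a call, 1 gained one and 1 changed sign without being called in either analysis (HEM13, at 0.06 without snf2Δ replicate 2). No called value reversed. The lost calls were those of HYP2 (GC and length correction, that correction with the replicate block, and without wild-type replicate 1, wild-type replicate 2, snf2Δ replicate 2 or snf2Δ replicate 3, at log2 fold changes of 0.44 to 0.56) and of AAC2 (without wild-type replicate 2 or snf2Δ replicate 2). The call gained was AAC3 without snf2Δ replicate 1. ANB1 and AAC3 did not pass the filter of 10 CPM, so no value could be had there. The number of the 10 that rose ran from 3 to 5 with a library left out, and the number that fell from 2 to 3. TIR1 lost its call under limma-voom, with an adjusted p of 0.0953, and the other analyses gave 6.85e-05 to 0.0443. Over all genes, 684 to 1194 rose and 742 to 1305 fell.

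Same-numbered libraries correlated at 0.155, −0.040 and 0.126 in their deviations from the group means, so the numbers were not taken to pair the samples. With the replicate block 977 genes rose and 1067 fell, and of the 10 genes 5 rose and 2 fell. The difference in log2 ratio, snf2Δ minus wild type, ran from 0.63 to 2.74 for ANB1 to HYP2 over the alternatives. For AAC3 to AAC2 that difference ran from −1.99 to −0.88. The lowest for ANB1 was without snf2Δ replicate 1. ANB1, AAC3 and DAN1 rest on few reads, and differences smaller than the spread of 3 libraries could not be detected.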
